A study of Homo sapiens with 12 samples.

Results

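The mitochondrial genome transcripts described here are the 37 rows, of 56266 in the deposited TPM tables, whose gene symbol begins with MT-. They comprise 13 mRNAs, 2 rRNAs and 22 tRNAs. TPM, a length-corrected unit of expression, divides the reads of a gene by its length and scales each library to the same total, so levels can be set side by side between genes. It keeps no record of sequencing depth. RNA-Seq was analysed in 10 libraries of the established human embryonic stem cell line H1, 2 in each of 5 groups. These were undifferentiated hESCs of genotype GATA2-/-, hemogenic endothelial cells (HEs, CD34+CD31+CD43-) sorted at day 8, and hematopoietic progenitor cells (HPCs, CD34+CD43+) sorted at day 9, the HEs and HPCs from both WT and GATA2-/- H1. HEs and HPCs arose in co-culture with OP9 cells, a mouse stromal line, and were purified on CD34 and then by flow sorting that included a human-specific antigen. The GATA2-/- line is 1 homozygous clone, made with TALENs and a targeting vector that carries a neomycin cassette, so clone and genotype cannot be told apart. WT hESCs were not analysed here. Nothing in the labels says that the 2 libraries of a group came from separate cultures, so p-values measure only the spread between these libraries. The headers of the 2 hESC files name passages 38 and 58, and the headers of the HE and HPC files of replicate 2 share a suffix that those of replicate 1 lack.

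The libraries carried the markers of their labels. Summed TPM of 8 pluripotency markers was 5522 and 6278 in hESCs and between 225 and 377 elsewhere, 14 endothelial markers summed to between 4103 and 5069 in HEs, and 12 pan-hematopoietic markers to between 1869 and 2484 in HPCs. GATA2, the targeted gene, stood at 107 and 78.0 TPM in WT HEs, 111 and 94.1 in GATA2-/- HEs, 290.1 and 204 in WT HPCs and 112 and 83.8 in GATA2-/- HPCs. An aberrant transcript of the disrupted locus can count toward these values, so they do not check the genotype.

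Human mitochondrial DNA is a small circle that is transcribed by its own RNA polymerase, POLRMT, into long precursors from both strands. The tRNAs lie between most of the other genes, and their excision releases the mRNAs and rRNAs. The mRNAs encode core subunits of respiratory complexes I, III, IV and V, the rRNAs build the mitochondrial ribosome, and all other proteins of the organelle, including those that stabilise, polyadenylate and degrade these RNAs, are encoded in the nucleus. Hematopoietic stem and progenitor cells are known to change their use of oxidative phosphorylation as they emerge and differentiate.

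Of the 37 genes, 28 are annotated on the plus strand of the GRCh37 mitochondrial sequence (chromosome M, GENCODE v44 lifted to GRCh37). The minus strand carries MT-ND6 and 8 tRNAs. The mRNAs overlap by more than a single base in 2 places, in different reading frames, and short reads from the shared bases can be counted to either gene. MT-ATP6 and MT-CO3 also meet at position 9207, which is annotated to both. MT-ATP8 (chrM:8366-8572), a small subunit of ATP synthase, and MT-ATP6 (chrM:8527-9207), a subunit of its proton channel, share 46 bases. MT-ND4L (chrM:10470-10766) and MT-ND4 (chrM:10760-12137), subunits of the membrane arm of complex I, share 7 bases. The shared bases of these 2 pairs are shown in capitals with 12 bases on each side, on the plus strand and 5′ to 3′. They begin with the ATG of the downstream gene, and the upstream gene ends in TAG in the first pair and in TAA in the second.
MT-ATP8/MT-ATP6: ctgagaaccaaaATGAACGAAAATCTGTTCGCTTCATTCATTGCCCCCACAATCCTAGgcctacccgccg
MT-ND4L/MT-ND4: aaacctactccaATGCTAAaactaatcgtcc

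The 5 tRNA rows with the highest mean TPM all lie on the minus strand, opposite the strand of most mRNAs. They are shown because they held most of the tRNA signal, with the anticodon in capitals, as DNA letters and 5′ to 3′ in the sense of the tRNA. MT-TA (alanine) lies at chrM:5587-5655, MT-TN (asparagine) at chrM:5657-5729, MT-TC (cysteine) at chrM:5761-5826 and MT-TY (tyrosine) at chrM:5826-5891, so these neighbours form a cluster between MT-ND2 and MT-CO1. MT-TS1 (serine) lies at chrM:7446-7514, between MT-CO1 and MT-CO2.
MT-TA: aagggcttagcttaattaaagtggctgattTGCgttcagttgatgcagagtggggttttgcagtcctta
MT-TN: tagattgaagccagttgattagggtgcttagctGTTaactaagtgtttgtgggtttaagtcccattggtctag
MT-TC: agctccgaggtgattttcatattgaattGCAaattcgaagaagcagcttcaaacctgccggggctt
MT-TY: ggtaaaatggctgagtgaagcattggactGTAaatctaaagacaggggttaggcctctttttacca
MT-TS1: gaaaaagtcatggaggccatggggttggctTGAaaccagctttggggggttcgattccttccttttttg

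Together the 37 rows held 9.35% and 8.99% of all TPM in the GATA2-/- hESC libraries, 6.82% and 6.29% in WT HEs, 6.49% and 6.38% in GATA2-/- HEs, 8.66% and 9.61% in WT HPCs, and 15.1% and 14.8% in GATA2-/- HPCs. Both GATA2-/- HPC libraries lay above all 8 others, the 4 HE libraries lay below all others, and the WT HPC range enclosed both hESC values. The mean share in HPCs was 1.39 times that in HEs for WT (library ratios 1.27 to 1.53) and 2.32 times for GATA2-/- (2.27 to 2.37), and GATA2-/- HEs held 0.702 times the share of GATA2-/- hESCs. Of the 20 most abundant rows of a library, 13 were mitochondrial in both GATA2-/- HPC libraries, against 10 and 9 in GATA2-/- hESCs, 6 and 7 in WT HPCs and 5 or 6 in HEs. In such bulk samples, fewer cells of a type and less RNA per cell cannot be told apart. These sums are a description with no test.

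**Figure D1:**
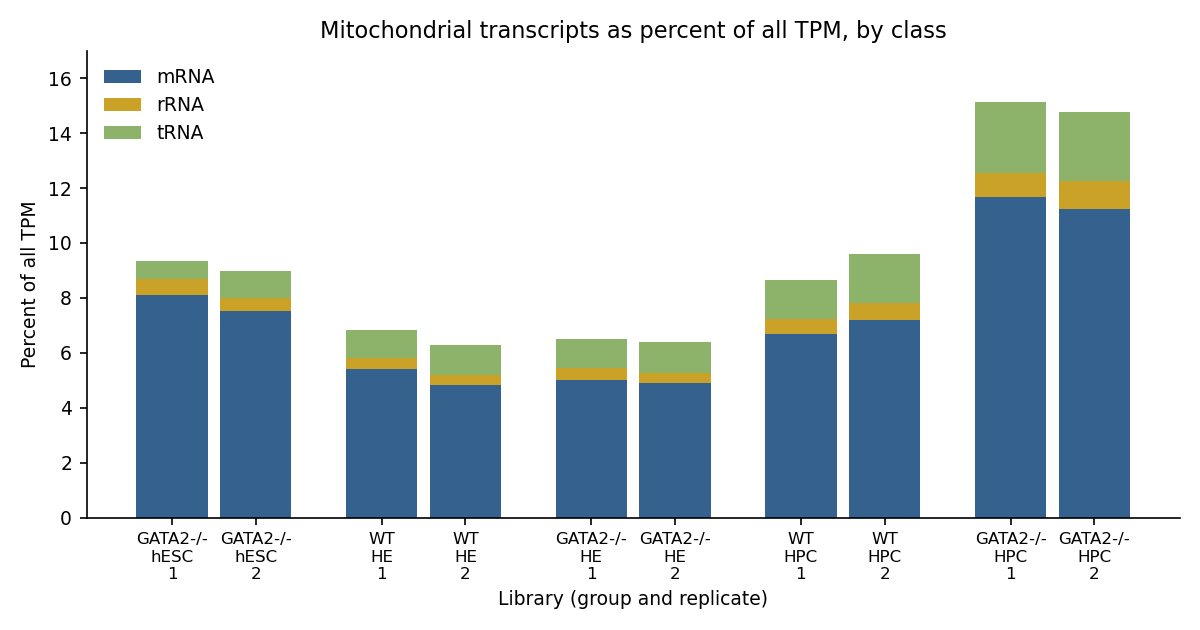
Stacked bars give the percent of all TPM held by mitochondrial mRNAs, rRNAs and tRNAs in each of the 10 libraries, labelled by group and replicate. The 2 GATA2-/- HPC bars reach 15.1% and 14.8%, the 4 HE bars end between 6.29% and 6.82%, and mRNA makes up most of every bar.

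The mRNAs made up most of the mitochondrial signal. Their share of mitochondrial TPM was 85.2% ± 2.24 (SD, n = 2) in GATA2-/- hESCs and between 75.0% and 79.3% in the 8 HE and HPC libraries. The rRNAs held between 5.14% and 6.89% in the 10 libraries. WT HEs, at 5.81% and 5.77%, lay within the hESC range but below all GATA2-/- HE and HPC libraries of either genotype. The ranges of the remaining groups overlapped. The tRNAs held 6.95% and 11.2% in hESCs, below all 8 HE and HPC libraries, which ranged from 14.9% to 18.8%. Because TPM divides by length, tRNA rows of at most 75 bases weigh heavily in these shares. With each row multiplied back by its length, an alternative added after the data were seen, the tRNAs held between 0.566% and 1.69%. On that scale both hESC libraries, at 0.566% and 0.925%, again lay below the other 8.

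Among the mRNAs, the 3 cytochrome c oxidase genes and MT-ATP6 of ATP synthase had the 4 highest mean TPM values in all 5 groups. MT-CO1, the catalytic core of complex IV, was the highest mRNA in the 4 HE and HPC groups. Its level was 11093 and 12096 TPM in GATA2-/- hESCs, 9233 and 8011 in WT HEs, 9167 and 8734 in GATA2-/- HEs, 10039.9 and 11651 in WT HPCs, and 17886 and 17742 in GATA2-/- HPCs. MT-CO2, the copper-binding subunit that receives electrons from cytochrome c, stood at 13345 and 12611 TPM in hESCs, above MT-CO1 in both libraries. In the other groups MT-CO2 was at 7629 and 6847 TPM (WT HEs), 6433 and 6679 (GATA2-/- HEs), 9109 and 10929 (WT HPCs), and 13619 and 14996 (GATA2-/- HPCs), lower than MT-CO1 in each of these 8 libraries. MT-ATP6 and MT-CO3, the third core subunit of complex IV, shared ranks 3 and 4. Their libraries overlapped in hESCs, WT HEs and GATA2-/- HPCs, while MT-ATP6 lay above MT-CO3 in GATA2-/- HEs and below it in WT HPCs. Lowest of the mRNAs were MT-ND5, MT-ND6 and MT-ND3, all complex I subunits, and outside GATA2-/- HPCs the group means of MT-ND5 and MT-ND6 lay between 1148 and 1920.1 TPM.

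**Figure D2:**
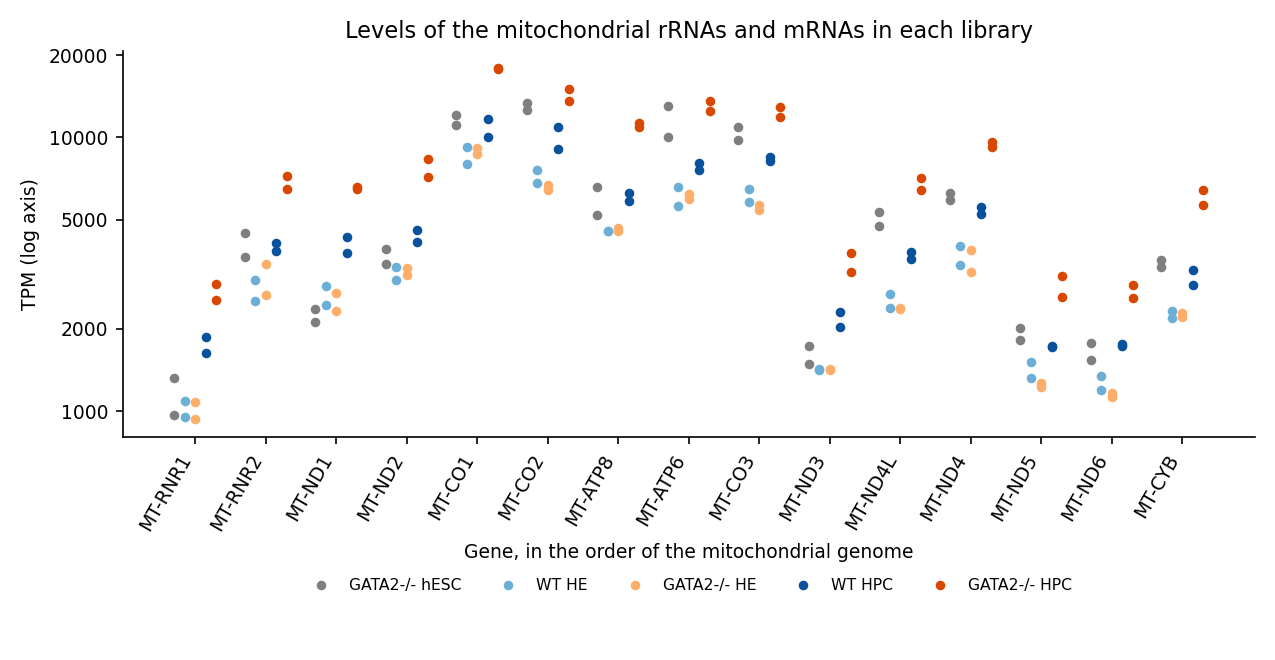
Each point is the TPM of an rRNA or mRNA in 1 library, on a log axis, with genes in the order of the mitochondrial genome and colours for the 5 groups. For each of the 15 genes both GATA2-/- HPC points lie above both WT HPC points, and the WT and GATA2-/- HE points lie close together.

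The row of MT-ND6, the complex I subunit whose sense strand is opposite to that of the other mRNAs, moved with theirs. It stood at 1547 and 1772 TPM in hESCs, 1346 and 1198 in WT HEs, 1171 and 1125 in GATA2-/- HEs, 1736 and 1757 in WT HPCs, and 2900.38 and 2593 in GATA2-/- HPCs. Its share of mitochondrial TPM stayed between 1.66% and 2.01% in the 10 libraries. The kit does not mark strand, so reads in the MT-ND6 row can come from RNA of either strand. MT-CYB, the only mitochondrial subunit of complex III, stood at 3368 and 3569 TPM in hESCs, 2318 and 2195 in WT HEs, 2214 and 2285 in GATA2-/- HEs, 2906 and 3283 in WT HPCs, and 6441 and 5648.5 in GATA2-/- HPCs. Both GATA2-/- HPC values were the highest of the 10, and the HE libraries of the 2 genotypes overlapped.

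The 2 rRNAs were present at modest TPM beside the mRNAs. MT-RNR2, the rRNA of the large mitochondrial ribosomal subunit, stood at 4498 and 3648 TPM in hESCs, 3007 and 2528 in WT HEs, 3447 and 2672 in GATA2-/- HEs, 3841 and 4103 in WT HPCs, and 6471 and 7229 in GATA2-/- HPCs. MT-RNR1, the rRNA of the small subunit, stood at 1328 and 969 TPM in hESCs, 952 and 1095 in WT HEs, 937 and 1079 in GATA2-/- HEs, 1628 and 1863 in WT HPCs, and 2554 and 2925 in GATA2-/- HPCs. The ratio of MT-RNR2 to MT-RNR1 ranged from 2.20 to 2.53 in the 4 HPC libraries. In hESCs it was 3.39 and 3.76, and in HEs it was higher in replicate 1 (3.16 and 3.68) than in replicate 2 (2.31 and 2.48) of both genotypes, so the HE values overlapped with both and split by the replicate number. The sources used here name a TruSeq RNA kit but do not say how RNA was selected before sequencing. The rRNA to mRNA ratio and the class shares of these libraries therefore need not be those of the cells.

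The composition of the mitochondrial RNA differed between hESCs and the differentiated cells, apart from its total. As shares of mitochondrial TPM, MT-CO2, MT-ATP6, MT-CO3, MT-ND4L and MT-ND4 were higher in both hESC libraries than in any of the 8 HE and HPC libraries. For 5 other mRNAs and both rRNAs the libraries overlapped. How many of all tested genes lie apart in this way was not computed, so the separations in this paragraph are a description with no test. MT-ND1, MT-ND2 and MT-ND3 held a lower share in both hESC libraries than in any HE or HPC library. MT-ND1, a complex I subunit that helps to form the quinone-binding site, showed the widest gap of these 3. It held 2.27% and 2.63% in hESCs, 3.66% to 4.22% in HEs, and 4.36% to 4.53% in HPCs. MT-ND4L held 5.74% and 5.30% in hESCs against 3.69% to 4.81% elsewhere, and MT-CO2 held 14.3% and 14.04% against 9.01% to 11.4%. The TPM ratios of the overlapping pairs were not constant, though short reads from the shared bases can be counted to either gene. Whether the RNAs of a pair changed apart from each other was not tested. MT-ATP8 was at 0.508 and 0.517 times the TPM of MT-ATP6 in hESCs and at 0.693 to 0.875 times in the other 8 libraries, and MT-ND4L was at 0.855 and 0.806 times that of MT-ND4 in hESCs and at 0.618 to 0.770 times in the others. By complex, the complex I genes held 28.1% and 29.0% of mitochondrial mRNA TPM in hESCs, 30.7% to 31.9% in HEs and 33.1% to 35.001% in HPCs, groups that did not overlap. Complex IV genes held 43.6% and 45.9% in hESCs and 38.1% and 39.8% in GATA2-/- HPCs, the lowest 2 values of the series. In this comparison stage is confounded with sorting and co-culture, and the hESC libraries used here are all GATA2-/-.

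The first comparison asks how mitochondrial transcripts differed between GATA2-/- hESCs and the GATA2-/- HEs derived from them. Of the 13 mRNAs, 8 fell, none rose, and neither rRNA passed the test (limma on log2(TPM + 1), Benjamini-Hochberg adjusted over 21543 genes, threshold 0.05). MT-ND4L fell the most, by 1.09 on the log2 scale (SE 0.13, adjusted p = 4.25e-04), from 5356 and 4759.9 TPM to 2394 and 2360.23. MT-CO2 fell by 0.98 (SE 0.15), MT-ATP6 by 0.91 (SE 0.16), MT-CO3 by 0.90 (SE 0.14) and MT-ND4 by 0.78 (SE 0.15). MT-CYB fell by 0.62, MT-ND5 by 0.62 and MT-ND6 by 0.53. MT-ND1, at a difference of 0.17 (SE 0.15, adjusted p = 0.459), was the only one of the 15 with a positive value, and MT-ND2 and MT-ND3 were at -0.18 and -0.17. Of the 22 tRNAs, 7 rose and none fell. In this comparison 13.9% of all tested genes rose and 16.1% fell. Both the 7 of 37 that rose (all tRNAs) and the 8 of 37 that fell (all mRNAs) stand somewhat above these background shares. The median difference was -0.62 over the mRNAs and 0.40 over the tRNAs, against -0.02 over all tested genes.

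The tRNAs that rose from hESCs to HEs were mostly on the plus strand. MT-TF (phenylalanine), the first gene of the plus-strand transcription unit ahead of MT-RNR1, stood at 27.3 and 105 TPM in hESCs, 453 and 404 in GATA2-/- HEs and 774 to 846 in HPCs of both genotypes. Its log2 difference between HEs and hESCs was 2.97 (SE 0.47, adjusted p = 0.00175). MT-TM (methionine) was listed at 0 and at 9.61 TPM in the 2 hESC libraries and at 114 and 154 in GATA2-/- HEs. MT-TD (aspartate) was listed at 0 in both hESC libraries, at 63.5 and 36.2 in GATA2-/- HEs and again at 0 in GATA2-/- HPC replicate 2, where its neighbours MT-CO1, MT-CO2 and MT-TS1 were not at 0. MT-TL1 (leucine), MT-TV (valine) and MT-TT (threonine) rose by 1.501 (SE 0.30), 1.58 (SE 0.42) and 1.09 (SE 0.27) on the log2 scale. MT-TC was the only minus-strand tRNA among the 7, at 480 and 893 TPM in hESCs and 1371 and 1471 in GATA2-/- HEs (log2 difference 1.12, SE 0.26, adjusted p = 0.0114). MT-TF and MT-TM rose with any 1 of the 4 libraries left out, by 2.01 and 3.65 without hESC replicate 1 and by 3.92 and 7.06 without hESC replicate 2. The number of tRNAs that rose was 3 without hESC replicate 1 and without GATA2-/- HE replicate 2, 5 without GATA2-/- HE replicate 1, and 6 without hESC replicate 2.

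From GATA2-/- hESCs to GATA2-/- HPCs, 25 of the 37 genes rose and none fell, where 14.2% of all tested genes rose and 16.4% fell. They were 10 mRNAs, both rRNAs and 13 tRNAs. MT-ND1 rose the most of the mRNAs, by 1.55 (SE 0.15, adjusted p = 1.15e-04), from 2124 and 2364 TPM to 6598 and 6488. MT-ND3 and MT-ND2 rose by 1.12 (SE 0.14) and 1.07 (SE 0.15). The rRNAs rose by 1.27 (MT-RNR1, SE 0.18) and 0.76 (MT-RNR2, SE 0.18). The 3 mRNAs that did not pass were MT-CO2 at 0.14, MT-ATP6 at 0.19 and MT-CO3 at 0.26 (adjusted p from 0.186 to 0.525), which with MT-ND4L had the largest falls in the HEs. MT-ND4L passed at 0.42 (SE 0.13, adjusted p = 0.0439). Under quantile normalization, which gives every library the same set of values by rank, MT-ND4 and MT-CO3 came to 0. MT-ND4L and MT-CO2 turned to -0.05 and -0.35, and the rest of these 15 genes stayed above 0. Of the tRNAs, MT-TM rose by 5.9965 (SE 0.86) and MT-TF by 3.88 (SE 0.47), while MT-TK (lysine) rose by 4.36 (SE 0.87) from values of 9.39 and 0 TPM. These sizes rest on which hESC library is used. Without hESC replicate 1 the rises were 4.29 for MT-TM, 2.93 for MT-TF and 6.05 for MT-TK, and without replicate 2 they were 7.70, 4.84 and 2.67. MT-TN, called as higher, did not pass without hESC replicate 1.

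Between HEs and HPCs of WT cells, all 13 mRNAs and both rRNAs were higher in both HPC libraries than in either HE library, an outcome seen in that direction for 20.2% of all tested genes. The test called 5 of the 37 genes higher and none lower (3.32% of all tested genes were called higher and 6.59% lower). These were MT-RNR1 at 0.77 (SE 0.18, adjusted p = 0.0306), MT-ND1 at 0.61 (SE 0.15, adjusted p = 0.0351), MT-ND3 at 0.61 (SE 0.14, adjusted p = 0.0293), MT-ND4L at 0.55 (SE 0.13, adjusted p = 0.0354) and MT-TS1 at 0.55 (SE 0.15, adjusted p = 0.0488). Over the 15 mRNAs and rRNAs the differences ran from 0.28 (MT-ND5) to 0.77, with a median of 0.46 against -0.01 over all tested genes. MT-ATP6 turned to -0.09 under quantile normalization, and the other 14 stayed above 0. None of these 5 genes passed with any 1 of the 4 libraries left out, while their differences stayed between 0.43 (MT-TS1) and 0.87 (MT-RNR1). MT-TH (histidine) passed as lower and MT-TI (isoleucine) as higher without WT HE replicate 2, and MT-TS2 (serine) as lower without WT HPC replicate 2. The count ran from 0 to 12 over the other settings.

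In GATA2-/- cells more genes passed the test at the same step. All 13 mRNAs and both rRNAs passed the test as higher in HPCs, with 7 tRNAs, so that 22 of 37 genes rose where 5.50% of all tested genes did, and none fell, where 7.24% did. MT-ND4L rose by 1.51 (SE 0.13, adjusted p = 3.96e-04), MT-RNR1 by 1.44 (SE 0.18), MT-CYB by 1.42 (SE 0.13), MT-ND4 by 1.41 (SE 0.15) and MT-ND1 by 1.38 (SE 0.15). MT-CO1 had the smallest rise of the 15, 0.99 (SE 0.15, adjusted p = 0.00302). The median over the 15 was 1.26, against 0.03 over all tested genes. The 7 tRNAs were MT-TA at 1.49 (SE 0.31), MT-TC at 1.38 (SE 0.26), MT-TY at 1.30 (SE 0.31), MT-TT at 1.202 (SE 0.27), MT-TP (proline) at 1.11 (SE 0.24), MT-TE (glutamate) at 1.08 (SE 0.28) and MT-TS1 at 1.04 (SE 0.15). With each library left out in turn 16 to 18 genes passed, and with only the 4 libraries of the comparison in the fit none did. When TPM was rescaled to the rows outside the mitochondrial genome, the median of all tested genes moved from 0.03 to 0.14, and 23 mitochondrial genes passed.

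Whether the HPC to HE difference depended on genotype was tested as an interaction. All 15 mRNAs and rRNAs had a larger difference in GATA2-/- cells, by 0.65 (MT-RNR2) to 0.97 (MT-CYB) on the log2 scale. None passed after adjustment over all genes (adjusted p from 0.459 to 0.783 from limma). At an unadjusted p under 0.05, 19 of the 37 genes were higher and 1 was lower, where 5.95% of all tested genes reached that level in either direction. No gene of the whole table (0%) passed the adjusted test of this interaction. Under quantile normalization the interaction of the 15 mRNAs and rRNAs ran from 0.07 (MT-CO2) to 1.06, with a median of 0.59. Without GATA2-/- HPC replicate 1, MT-TD, at 0 in the remaining library, passed as lower here and in the genotype comparison of HPCs.

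The genotype comparison in HEs showed no member past the threshold of limma, where 0.0186% of all tested genes passed. Over the 15 mRNAs and rRNAs the log2 difference of GATA2-/- to WT ran from -0.18 (MT-ND5) to 0.14 (MT-RNR2), with a median of -0.02. At an unadjusted p under 0.05, 1 gene was higher and 1 lower, both tRNAs, where 1.98% of all tested genes were higher and 2.87% lower. With SE of 0.13 to 0.18 for these 15 genes, the HE libraries do not show whether smaller differences exist.

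In HPCs the genotype difference was wider but did not pass either. Each of the 15 mRNAs and rRNAs was higher in both GATA2-/- HPC libraries than in either WT HPC library, an outcome in that direction for 19.7% of all tested genes. No member passed the adjusted test of limma, where 0.0603% of all tested genes did. At an unadjusted p under 0.05, 24 of the 37 genes were higher and 1 was lower, with 5.72% of all tested genes higher and 3.22% lower. MT-CYB came closest, at a difference of 0.97 (SE 0.13, adjusted p = 0.0673), followed by MT-ND4L at 0.86 (SE 0.13), MT-ATP8 at 0.87 (SE 0.15) and MT-ND2 at 0.83 (SE 0.15). MT-CO2 had the smallest difference, 0.52 (SE 0.15), and MT-CO3 stood at 0.57 (SE 0.14). The median over the 15 was 0.72, against 0.05 over all tested genes. Under quantile normalization all 15 stayed above 0 but ran from 0.06 (MT-CO3) to 0.90, with a median of 0.59 and MT-CO2 at 0.07. MT-CYB passed with the filter raised to 10 TPM (adjusted p = 0.0430) and with TPM rescaled to the rows outside the mitochondrial genome (adjusted p = 0.0492), and over the settings that kept all libraries of the comparison its adjusted p from limma ran from 0.0430 to 0.611.

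**Figure D3:**
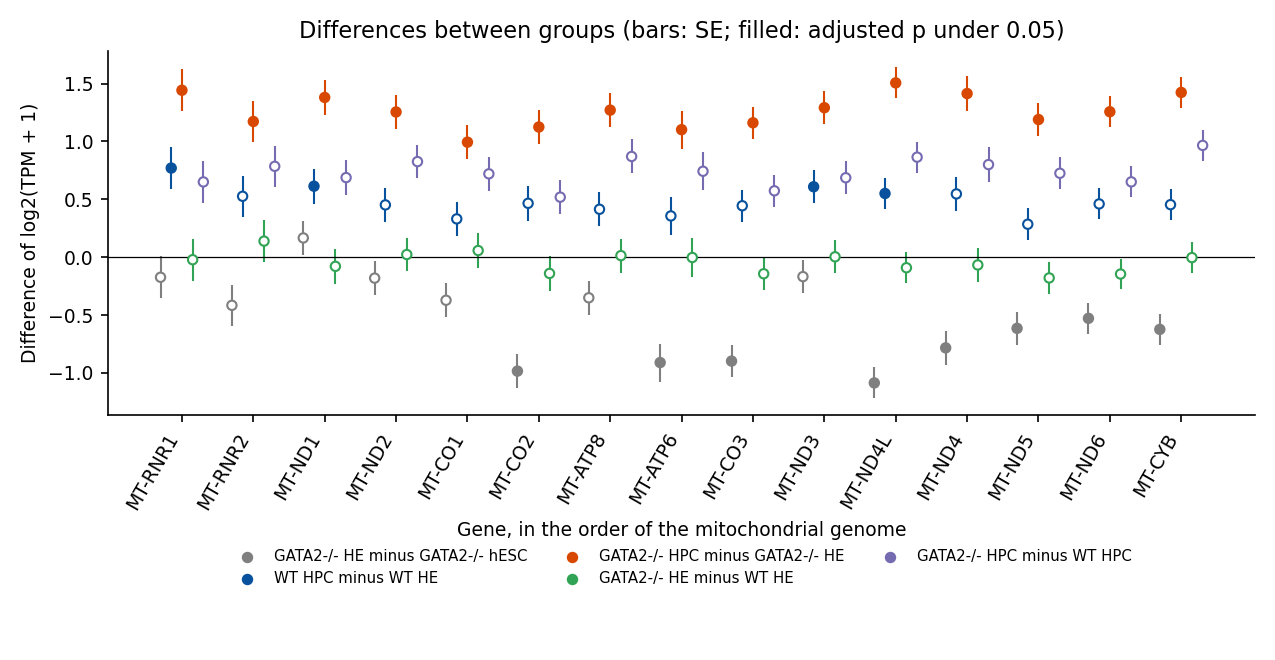
Points give the difference of log2(TPM + 1) between 2 groups for each rRNA and mRNA, bars its SE, and filled points an adjusted p under 0.05. The 15 GATA2-/- HPC minus GATA2-/- HE points are filled and lie between 0.99 and 1.51, the GATA2-/- HE minus WT HE points lie between -0.18 and 0.14, and the GATA2-/- HPC minus WT HPC points are open between 0.52 and 0.97.

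Erythroid markers differed more between the replicates than between the genotypes of the HPCs. Summed TPM of 13 erythroid markers was 5697 and 15152 in WT HPC replicates 1 and 2 and 8671 and 17016 in GATA2-/- HPC replicates 1 and 2, and hESC and HE libraries ranged from 65 to 228. Within replicate 1 the mitochondrial share was 8.66% in WT and 15.1% in GATA2-/- HPCs, and within replicate 2 it was 9.61% and 14.8%. Pan-hematopoietic markers summed to 2484 and 2366 TPM in WT HPCs and to 1869 and 2173 in GATA2-/- HPCs, endothelial markers to 1357 and 1032 against 1298 and 1172, and 8 macrophage markers to 99.1 and 116.5 against 83.8 and 105. All 13 erythroid and all 12 pan-hematopoietic markers were above 0 in the 4 HPC libraries, the macrophage markers CD14 and FCGR1A were at 0 in all 4, and the endothelial marker SOX17 was at 0 in 1. The 10 mesenchymal and stromal markers summed to 249.97 and 109 in WT and 205 and 129.51 in GATA2-/- HPCs, with LUM at 0 in 3 of the 4. The 10 nuclear and short noncoding RNAs summed to 459.88 and 390.1 against 557 and 451. The part of these cell types and RNAs in the mitochondrial difference was not tested.

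The share of single genes within the mitochondrial total was compared between the 4 HPC and the 4 HE libraries with an exact two-sided permutation test, whose smallest p with these numbers is 0.0286. MT-CO1 held less in HPCs, 11.9% ± 0.235 (SD, n = 4), than in HEs, 13.5% ± 0.577 (SD, n = 4, exact p = 0.0286). MT-ND1 held more in HPCs, 4.42% ± 0.0742, than in HEs, 3.99% ± 0.262 (exact p = 0.0286), as did MT-ND4L at 4.30% ± 0.359 against 3.79% ± 0.116 (exact p = 0.0286). For each of these 3 genes the 4 HPC libraries lay apart from the 4 HE libraries, and all 3 p-values are the smallest that the test can give. Each set of 4 pools 2 WT and 2 GATA2-/- libraries, which the test treats as interchangeable. For MT-ND4L the WT libraries lay close, at 4.17% and 3.97% in HPCs and 3.94% and 3.81% in HEs. The GATA2-/- libraries lay wider apart, at 4.25% and 4.81% in HPCs and 3.69% and 3.70% in HEs. The other 12 genes had an exact p between 0.0857 and 1, before any adjustment for the 15 genes compared. Among them MT-ATP6 held 8.68% ± 0.612 in HPCs and 9.41% ± 0.319 in HEs, and MT-RNR1 held 1.87% ± 0.131 and 1.57% ± 0.174. As a background in TPM, 23.0% of all tested genes had HPC and HE libraries that did not overlap, and 3 of 15 mitochondrial genes did so in their share of the mitochondrial total. The 3 genes thus do not stand out from that background, which is itself on another measure. In TPM itself all 15 lay higher in the 4 HPC libraries, as did 9 of the 22 tRNAs and 9.48% of all tested genes.

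**Figure D4:**
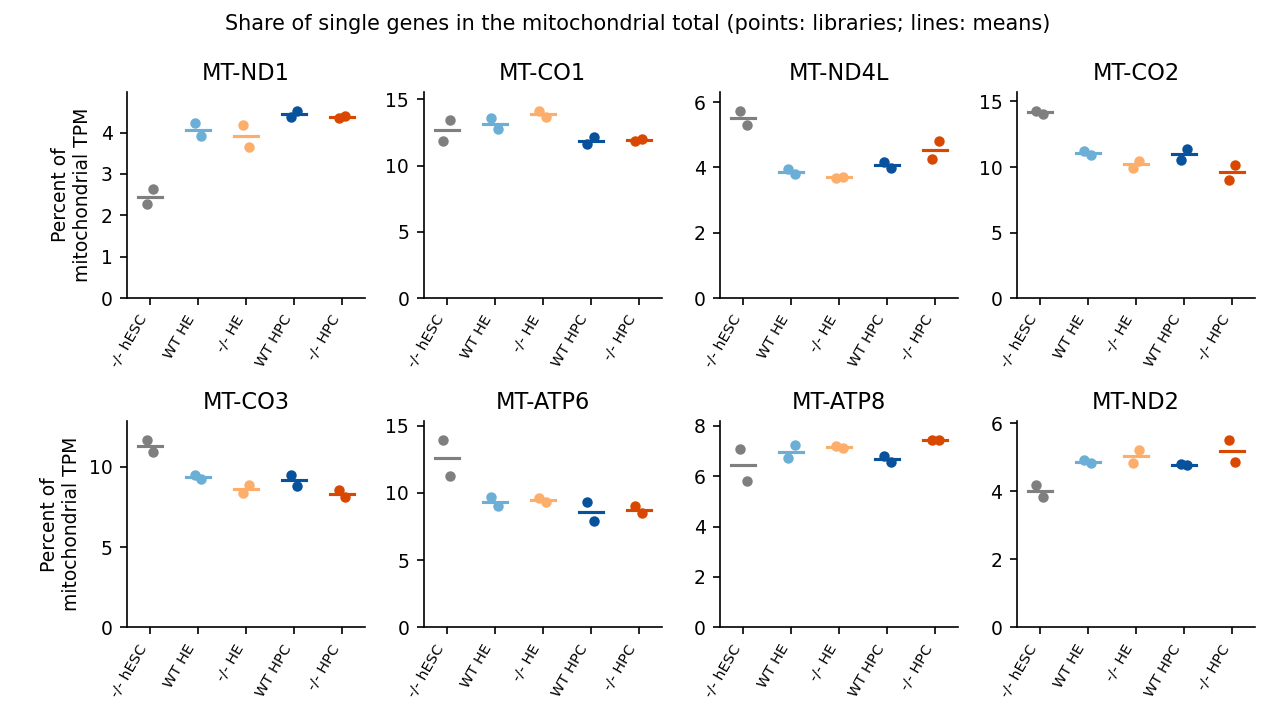
Each panel gives the percent of mitochondrial TPM held by 1 gene, with a point for each library, a line for the group mean, and -/- standing for GATA2-/-. MT-CO1 lies lower in the 4 HPC libraries (11.6% to 12.1%) than in the 4 HE libraries (12.8% to 14.1%), and MT-ND1 is lowest in the 2 hESC libraries (2.27% and 2.63%).

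Within the tRNAs the annotated strand set rows apart. The 8 minus-strand tRNAs held between 81.0% and 89.6% of tRNA TPM in the 10 libraries. Mean TPM over the libraries was highest for MT-TS1 (3021), MT-TA (2858), MT-TN (1935), MT-TC (1856) and MT-TY (1737), whose sequences are given above. The highest plus-strand tRNAs, MT-TF and MT-TL1, came to 518 and 465 TPM. The median of the row means was 1796 TPM over the 8 minus-strand tRNAs and 80.3 over the 14 of the plus strand. Not every minus-strand row was high, since MT-TQ (glutamine) averaged 31.9 TPM, and MT-TE and MT-TP 463 and 320.0. No tRNA was at 0 in all libraries, and 7 plus-strand tRNAs were at 0 in at least 1. The kit does not mark strand, so reads of a mature tRNA, of its precursor and of RNA from the opposite strand, such as extensions of MT-CO1 past MT-TS1, cannot be told apart. Size selection of the libraries kept longer fragments, so these rows need not measure mature tRNAs.

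**Figure D5:**
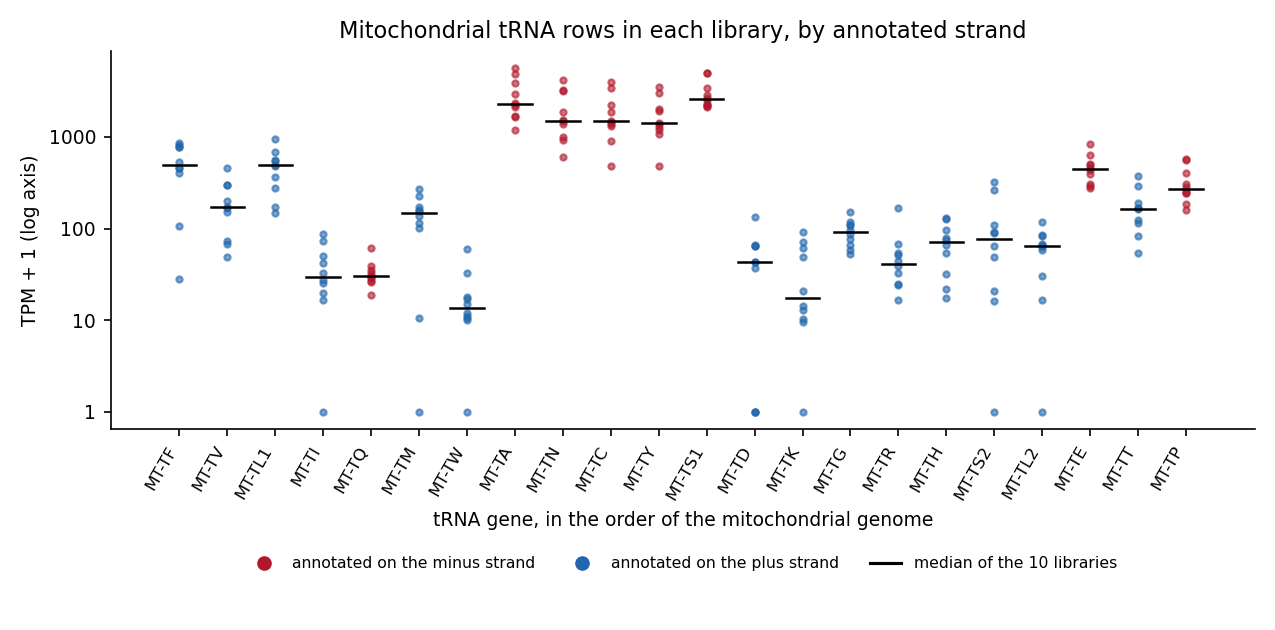
Points give TPM + 1 of each mitochondrial tRNA in the 10 libraries on a log axis, in genome order, with red for the minus and blue for the plus strand and black lines for medians. The highest 5 rows, MT-TS1, MT-TA, MT-TN, MT-TC and MT-TY, are all on the minus strand, and points at 1 are libraries listed at 0.

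The 5 most abundant tRNAs had higher means in HPCs than in HEs of both genotypes, and in GATA2-/- than in WT HPCs, as the mRNAs did. From hESCs to GATA2-/- HEs, where most mRNAs fell, their differences ran from -0.01 (MT-TS1) to 1.12 (MT-TC). MT-TA stood at 1180.46 and 2246 TPM in hESCs, 1703 and 2339 in WT HEs, 1655 and 2096 in GATA2-/- HEs, 2925 and 3917 in WT HPCs, and 4862 and 5659 in GATA2-/- HPCs. It was higher in replicate 2 of all 5 groups. MT-TN showed the same split, with 1485 and 3272 TPM in WT HPCs and 3166 and 4137 in GATA2-/- HPCs, and at an SE of 0.50 its difference of 1.60 between GATA2-/- HPCs and HEs did not pass (adjusted p = 0.0739). MT-TS1 varied less, with 2170.1 and 2131 TPM in WT HEs, 2892 and 3409 in WT HPCs and 4982 and 4931 in GATA2-/- HPCs. MT-TS2, the other serine tRNA, on the plus strand, stood lower in GATA2-/- HEs than in hESCs and higher in GATA2-/- than in WT HPCs, with 264 and 322 TPM in hESCs, 107 and 63.5 in GATA2-/- HEs, 0 and 15.1 in WT HPCs and 90.5 and 89.4 in GATA2-/- HPCs, and no comparison of it passed.

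Nuclear genes that act on mitochondrial DNA and RNA, on mitochondrial biogenesis or in mitophagy were followed in 7 lists. They held 61 genes in the files, all of them tested, of which 7 were listed under biogenesis and 8 under mitophagy. From GATA2-/- hESCs to GATA2-/- HEs, 3 rose and 17 fell, where 13.9% of all tested genes rose and 16.1% fell, with a median of -0.43 against -0.02 over all tested genes. SLIRP, which binds mitochondrial mRNAs together with LRPPRC, fell the most, by 1.67 (SE 0.18), from 485 and 387 TPM to 138 and 134. TFB1M, a methyltransferase of the small-subunit rRNA, fell by 1.51 (SE 0.31) and TRMT10C, a subunit of mitochondrial RNase P, by 1.47 (SE 0.29). POLRMT, the polymerase itself, fell by 0.97 (SE 0.21), from 104 and 93.3 TPM to 57.4 and 43.5. The 3 that rose were the mitophagy receptors BNIP3 (3.44, SE 0.51) and BNIP3L (1.97, SE 0.26) and the transcription factor subunit GABPB1 (0.80, SE 0.17).

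From GATA2-/- hESCs to GATA2-/- HPCs, 8 of the 61 rose and 12 fell, shares near those of all tested genes (14.2% and 16.4%). BNIP3, BNIP3L and MTERFD3, a member of the mitochondrial termination factor family, rose by 2.71 (SE 0.51), 2.23 (SE 0.26) and 1.74 (SE 0.29). TFB1M, PINK1, the kinase that marks damaged mitochondria, and TRMT61B, a tRNA and rRNA methyltransferase, fell by 2.15 (SE 0.31), 1.51 (SE 0.31) and 1.26 (SE 0.27). POLRMT was lower in HPCs than in hESCs too, by 0.86 (SE 0.21).

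From HEs to HPCs, 1 of these 61 genes rose and 1 fell in WT, where 3.32% of all tested genes rose and 6.59% fell, and 3 rose and 1 fell in GATA2-/- cells, where 5.50% rose and 7.24% fell. In WT, TBRG4, a FASTK family protein of mitochondrial mRNA maintenance, rose by 0.59 (SE 0.16, adjusted p = 0.0460), and PPARGC1A, a coactivator of mitochondrial biogenesis, fell by 1.81 (SE 0.41, adjusted p = 0.0266) from 3.29 and 3.38 TPM to 0.44 and 0.06. In GATA2-/- cells MTERFD3 rose by 1.80 (SE 0.29), TOP1MT, the mitochondrial topoisomerase, by 1.12 (SE 0.22), and LRPPRC, which protects mitochondrial mRNAs from decay, by 1.08 (SE 0.21, adjusted p = 0.00988). LRPPRC stood at 57.3 and 51.0 TPM in GATA2-/- HEs and 109 and 122 in GATA2-/- HPCs, against 64.6 and 48.3 in WT HEs and 92.05 and 68.3 in WT HPCs. PINK1 fell by 1.54 (SE 0.31). The medians over the 61 genes were 0.12 in WT and 0.22 in GATA2-/-, against -0.01 and 0.03 over all tested genes. Between genotypes none of the 61 passed in HEs or in HPCs by limma, and at an unadjusted p under 0.05 1 was higher and 1 lower in HEs (1.98% and 2.87% of all tested genes) and 4 were higher and 1 lower in HPCs (5.72% and 3.22%).

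The most abundant members of the remaining lists did not pass the test between HEs and HPCs of either genotype. SSBP1, which coats single-stranded mitochondrial DNA, ranged from 166 to 199 TPM in HEs and from 167 to 241 in HPCs, HSD17B10, another subunit of mitochondrial RNase P, from 73.5 to 82.5 and from 64.4 to 84.7, and TRMU, which modifies tRNAs, from 39.8 to 50.5 and from 33.4 to 52.0. PPRC1, a coactivator related to PPARGC1A, ranged from 23.5 to 50.05 TPM in HEs and from 55.6 to 65.9 in HPCs, without overlap, at differences of 0.82 in WT and 0.98 in GATA2-/- cells (SE 0.34 for both).

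Nuclear copies of mitochondrial genes, whose reads can be exchanged with the mitochondrial rows by mapping, held little signal. By symbol, 182 rows were such copies, 8 to 17 of them reached 1 TPM in a library, and they summed to between 414 and 1031 TPM, or 0.626% to 0.778% of the mitochondrial TPM. MTRNR2L9, a copy of MT-RNR2, was the highest at a mean of 190.7 TPM, followed by MTND6P4 at 149 and MTATP8P1 at 103. MTND6P4 stood at 8.71% of the mean of MT-ND6 and the other 2 at 4.60% and 1.60% of the gene each copies.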

How the data were processed

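RNA-Seq was analysed in 10 libraries of the H1 line, 2 per group, grouped by their sample labels. Libraries were made with a TruSeq RNA kit, size-selected on a gel and read single-end on a MiSeq. The authors trimmed adapters with Trimmomatic and mapped reads to hg19 with Bowtie, and the submitters' processing notes also name RSEM. The deposited values are TPM per gene, which the authors scaled per library to sums between 998299 and 999106, so the read depth is unknown and precision was judged only from replicates. The mitochondrial reference sequence behind the mapping is not given in the sources used here, while GRCh37 with GENCODE v44 in its lifted form, where all 37 rows were found, gave positions and sequences.

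Differences of log2(TPM + 1) between the 5 group means came from 1 limma model (version 3.58.1, R 4.3.3) with trended eBayes and no block, fitted to the 21543 genes with at least 1 TPM in at least 2 libraries, with Benjamini-Hochberg adjustment over all of them and a threshold of 0.05. A difference is on the log2(TPM + 1) scale, which understates that of low genes. The code was tested on simulated data. Shares were computed in Python 3.11.15 with pandas 2.3.3, and the exact permutation tests enumerated all 70 arrangements of 4 HPC and 4 HE libraries. The members and gene lists were chosen with earlier results of these data known. Every mRNA and rRNA was named, the 5 tRNAs with the highest mean TPM, up to 5 tRNAs per comparison past the threshold, up to 3 list genes in each direction per comparison and the most abundant member of each mitochondrial list. MT-TE, MT-TQ, MT-TS2, MT-TH, MT-TI, the named nuclear copies and the markers at 0 were added after their values were seen. Lists carry older and newer symbols, and 61 of 75 mitochondrial list symbols were in the files. MTTP, which matches the pattern for nuclear copies but is none, was left out.

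Alternatives were a pseudocount of 0.1, no filter, a filter of 10 TPM, a fit of just the compared libraries, quantile normalization, rescaling to the rows outside the mitochondrial genome, eBayes without trend, the replicate number as a block, and leaving out each library. The length-weighted class shares and the restriction to rows with a transcript of at least 200 bases were chosen after seeing the data.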

Additional observations from a re-analysis of the deposited data

Results flagged for a closer look

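MT-ND2, a complex I subunit, held 5.51% of mitochondrial TPM in GATA2-/- HPC replicate 1, while the other 3 HPC libraries lay between 4.77% and 4.85%. The gap to the nearest of them was 0.886 of the whole range of the 4 libraries, above the critical value of Dixon's test at the 95% level. It was the only one of 30 such checks (15 genes in HEs and in HPCs) past that value, and chance passes about 1 in 20. In TPM the same library stood at 8338 against 7153 in GATA2-/- HPC replicate 2.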

How the results depend on the processing

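Counts of mitochondrial genes past the threshold moved as follows. With only the libraries of the comparison in the fit, which leaves 2 residual degrees of freedom before moderation, 5 passed between GATA2-/- HEs and hESCs (15 before), 12 between GATA2-/- HPCs and hESCs (25 before), 0 between WT HPCs and HEs (5 before) and 0 between GATA2-/- HPCs and HEs (22 before). For WT HPCs against HEs the count was 2 with a pseudocount of 0.1 and with quantile normalization, 0 with no filter and with eBayes without trend, 10 with the 10 TPM filter and 12 with the replicate block. Between genotypes in HPCs it was 1 with the 10 TPM filter and 1 with the rescaling. Leaving out 1 library gave 10 to 12 between GATA2-/- HEs and hESCs, 19 to 23 between GATA2-/- HPCs and hESCs, 0 to 2 between WT HPCs and HEs, 16 to 18 between GATA2-/- HPCs and HEs, and 0 to 1 for the genotypes in HPCs and for the interaction, where the 1 was MT-TD, lower without GATA2-/- HPC replicate 1. Under quantile normalization MT-CO2 and MT-ND4L turned to -0.35 and -0.0476 in GATA2-/- HPCs against hESCs. The cause of these changes was not tested. The deviations of same-numbered libraries correlated at -0.01 to 0.12 over the pairs of groups, above 0.1 for WT with GATA2-/- HEs alone, so the numbers were not taken as pairs, although replicate 2 of HEs and HPCs shares a header suffix. The replicate block changed the other counts by at most 1.

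Without the tRNA rows the mitochondrial percent of TPM was 8.34 in GATA2-/- hESCs, 5.50 in WT HEs, 5.37 in GATA2-/- HEs, 7.52 in WT HPCs and 12.4 in GATA2-/- HPCs. Over rows with a transcript of at least 200 bases it was 8.54, 5.66, 5.51, 7.78 and 13.0 in the same order, and without 2 abundant nuclear rows it came to 6.58 in GATA2-/- HEs and 15.2 in GATA2-/- HPCs. Averaged over the 10 libraries, mRNA, rRNA and tRNA held 92.8%, 7.22% and none without the tRNA rows, and 88.0%, 10.7% and 1.33% weighted by length. The share tests of HPCs against HEs, 3 genes before, gave 1 or 2 with a library left out and 0 when labels were permuted within replicate numbers, where no p can fall below 0.0556. Depth behind the TPM is unknown, so a library listed at 0 cannot be given a limit.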
